A study of Homo sapiens with 12 samples.

Results

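The response to an siRNA against ARD1 was compared between both hepatoma lines of the study, gene by gene, to separate genes that moved the same way in both lines from genes that moved opposite ways. All 12 libraries entered, 3 in each of 4 groups: 3B-NC and 3B-Si are cells labelled Hep-3B given a negative-control siRNA or the siRNA against ARD1 (siARD1), and H7-NC and H7-Si are Huh-7 cells given the same. Both lines are human liver cancer lines, each a single line, and the labels state no dose, time after transfection or siRNA sequence. The count tables of the lines were joined on the gene identifier, which left 22730 genes listed in both of 28704 listed in either, and 17122 of these had enough counts to be tested. Total counts ran from 17327615 to 25960237 per library. The labels do not say whether the replicates are separate cultures, so each p-value measures only the spread between these libraries.

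The label of the first line needs a caution before any result. The Hep-3B line is known to secrete albumin and alpha-fetoprotein, but the libraries labelled Hep-3B held 4.26, 6.58 and 5.27 CPM (counts relative to the scaled total of the library) of ALB in the controls, against 11831 to 12109 CPM in the Huh-7 controls. AFP stood at 1.09 to 2.09 CPM against 4588 to 5007 CPM. The summed level of 12 hepatocyte markers was 430 to 518 CPM in the controls labelled Hep-3B and 34200 to 36200 CPM in the Huh-7 controls. These libraries are therefore called 3B, the name in their titles. Among markers of other cell types, the 5 fibroblast genes tested summed to 173 to 185 CPM in the 3B controls, the 3 endothelial genes to 56.2 to 69.7 and the 3 keratinocyte genes to 24.6 to 32.2 CPM. In the Huh-7 controls these sums were 11.2 to 14.4, 12.4 to 13.5 and 12.9 to 13.7 CPM. The 1 leukocyte gene tested was at 11.1 CPM or less in all 12 libraries.

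NAA10, formerly ARD1, encodes the enzyme of NatA, a complex that sits on the ribosome and acetylates the N termini of many new proteins while they are made. NAA15 anchors the complex to the ribosome and NAA50 is a partner enzyme bound to it. The study's stated interest is ARD1 in glutathione synthesis and in the escape from ferroptosis, a death of cells driven by iron and lipid peroxides, in which the cystine importer, glutathione and lipid-repairing enzymes protect the cell.

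NAA10 fell in both lines, and further in Huh-7. NAA10 (ENSG00000102030, GRCh38 chromosome X, 153929242 to 153935223, minus strand) stood at 51.6, 62.2 and 62.5 CPM in the 3B controls and at 11.5, 16.6 and 15.4 CPM after siARD1. In Huh-7 the controls held 156, 147 and 192 CPM and the siARD1 libraries 12.3, 9.24 and 9.38 CPM. No siARD1 library overlapped a control in either line, and the levels left after siARD1 were close while the starting levels differed. The log2 fold change was -2.0 in 3B (SE 0.15) and -4.0 in Huh-7 (SE 0.16), and the difference of -2.0 passed edgeR's quasi-likelihood test with Benjamini-Hochberg adjustment (adjusted p = 1.56e-05). The lines therefore differ in how far the target fell as well as in their other genes, and these cannot be told apart.

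As many genes moved the same way in both lines as moved opposite ways. A gene is called where its adjusted p is under 0.05 in that contrast of the edgeR fit. In 3B, 2877 genes rose (16.8% of those tested) and 2582 fell (15.1%). In Huh-7, 2811 rose (16.4%) and 2842 fell (16.6%). Called in both lines were 2219 genes. Of these, 577 rose in both (3.37% of all genes tested), 556 fell in both (3.25%), 556 rose in Huh-7 and fell in 3B (3.25%), and 530 fell in Huh-7 and rose in 3B (3.1%). The 1133 that moved the same way are 51.1% of the genes called in both, 20.8% of all 3B calls and 20.0% of all Huh-7 calls. Across all genes tested, Spearman's rho between both responses was 0.03, and it was 0.0161 over the 9776 genes with at least 5 CPM in the controls of both lines. These are descriptions across genes, which are not independent replicates.

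**Figure D1:**
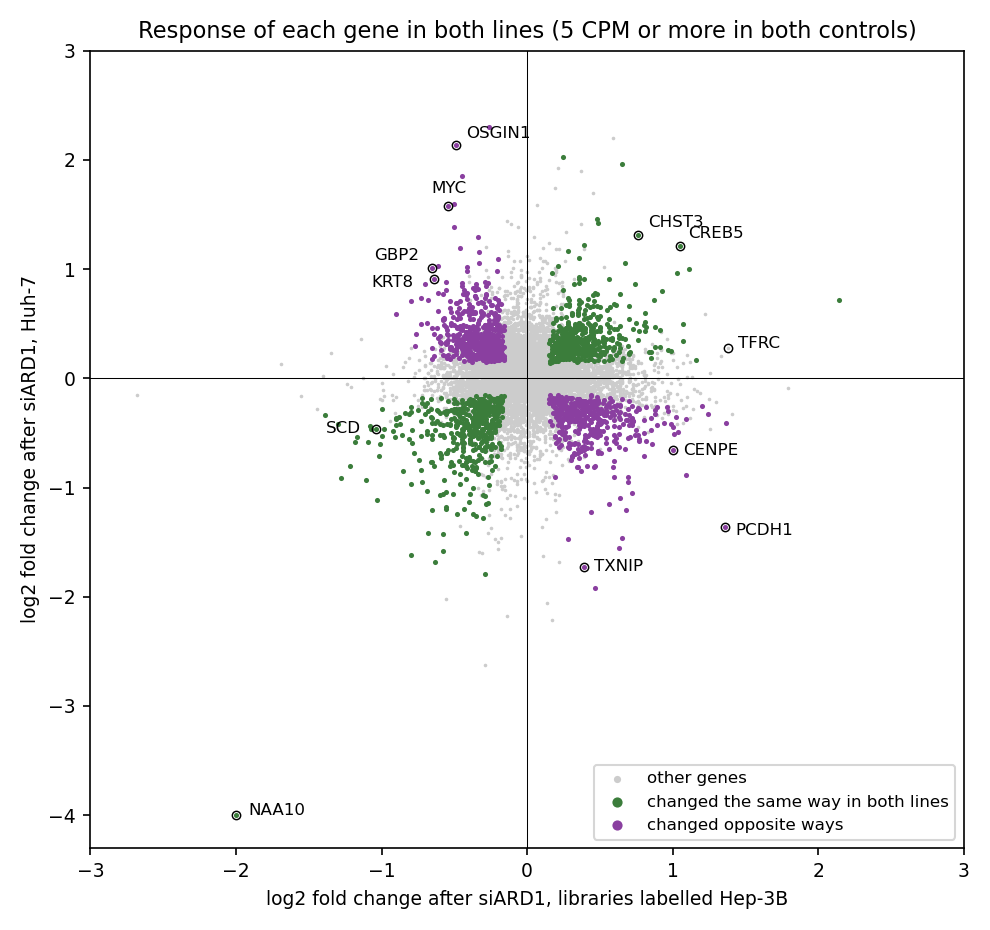
Each point is a gene with at least 5 CPM in the controls of both lines; the x axis is its log2 fold change after siARD1 in the libraries labelled Hep-3B and the y axis that in Huh-7. Genes called the same way (green) and opposite ways (purple) spread over all 4 sign combinations, and NAA10 lies apart at -2.0 and -4.0.

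The difference itself, the Huh-7 response minus the 3B response, was called above 0 for 2607 genes (15.2%) and below 0 for 2773 (16.2%). It reached at least 2-fold in 369 of the former and 795 of the latter. All 1086 opposite genes were also called by the difference. Of the 1133 same-way genes, 204 differed in size between the lines, 111 with the larger response in Huh-7 and 93 with the larger one in 3B. Of 6674 genes called in only 1 line, the difference was called for 3800 and not for 2874, so a call in 1 line alone often did not show that the lines differ. Changes in the shared and opposite classes were modest: the median absolute log2 fold change was 0.363 in 3B and 0.348 in Huh-7 for shared rises, 0.416 and 0.476 for shared falls, 0.327 and 0.359 for genes that rose in Huh-7 and fell in 3B, and 0.454 and 0.387 for the reverse. Both changes were at least 1.5-fold in 47, 90, 28 and 77 genes of these classes. The split of the 1133 shared genes rests on the scaling: 50.9% of them rose, against 30.5% of those called with upper-quartile factors (375 rises and 856 falls).

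The largest shared rises were in genes of varied function. CREB5 (ENSG00000146592, chromosome 7, 28299321 to 28825894), a transcription factor that binds cyclic AMP response elements, stood at 9.50, 12.6 and 11.3 CPM in the 3B controls and at 24.2, 17.4 and 27.1 CPM after siARD1. Its Huh-7 controls held 6.75, 6.6 and 7 CPM and the siARD1 libraries 16.5, 18.4 and 12.3 CPM. The groups did not overlap in either line, and the log2 fold changes of 1.05 and 1.21 differed by less than their spread (difference 0.17, SE 0.23, edgeR adjusted p = 0.624). UPP1, which encodes the uridine-cleaving enzyme uridine phosphorylase, rose from 25.7, 37.6 and 37.4 to 72.1, 60.8 and 71.5 CPM in 3B. In Huh-7 it rose from 11.1, 10.4 and 9.73 to 20.3, 20.4 and 20.0 CPM, so that both lines showed a similar fold from different levels (log2 1.03 and 0.96). CHST3, a sulfotransferase gene of chondroitin sulfate chains, rose from 63.3, 61.8 and 63.5 to 110, 109 and 100 CPM in 3B and from 27.3, 26.2 and 29.7 to 70.0, 69.7 and 67.3 CPM in Huh-7. It was a shared rise of unequal size, larger in Huh-7 (1.31 against 0.76, difference 0.56, edgeR adjusted p = 3.96e-05).

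Other shared rises by the same ranking were in OSTM1, a lysosomal chloride transporter subunit gene (0.87 in 3B, 0.72 in Huh-7), TIGAR, which encodes a sugar bisphosphatase (1.45 and 0.83), UNC5B, a netrin receptor gene (1.11 and 1.0), and WARS1, the tryptophanyl-tRNA synthetase gene (0.93 and 0.80). For WARS1 the first 3B control was low, at 88.7 CPM against 152 and 158 CPM, and for UNC5B likewise, at 106 CPM against 226 and 210 CPM. In both genes that library still lay below all 3 siARD1 libraries, as did the other controls. The lines' difference for TIGAR (-0.63, edgeR adjusted p = 0.0415) was lost with DESeq2 (adjusted p = 0.0523), with no filter (0.0503) and without any of 7 single libraries (up to 0.145). The Huh-7 call of UNC5B was lost in 5 of the 6 fits that each left out 1 Huh-7 library (edgeR adjusted p from 0.0718 to 0.104). It was also lost with limma-voom (adjusted p = 0.0682) and with the replicate block (edgeR adjusted p = 0.0708). The 3B call of UNC5B was lost with each line fitted alone (edgeR adjusted p = 0.0645).

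Genes that answer to amino acid shortage rose in part in 3B and widely in Huh-7. Of 34 targets of ATF4, the activator of the amino acid response, 8 rose and 1 fell in 3B (median log2 fold change 0.279) and 25 rose and 0 fell in Huh-7 (median 0.612). Over all genes tested the medians were -0.0072 and -0.028. The difference was called above 0 for 19 targets and below 0 for 1, and 4 rose in both lines. NUPR1, a stress-induced chromatin cofactor gene, went from 7.76, 6.81 and 7.88 to 28.8, 24.8 and 21.3 CPM in Huh-7. In 3B it stood at 28.1, 33.4 and 36.7 CPM in the controls and at 34.9, 42.0 and 34.6 CPM after siARD1, where the groups overlapped (difference 1.55, edgeR adjusted p = 1.24e-07). DDIT3, the gene of the stress factor CHOP, likewise rose in Huh-7 (0.93) with a 3B value of -0.11 that did not pass (difference 1.05, edgeR adjusted p = 9.18e-07). The count of shared rises in this list is not stable: it ran from 2 without the first or the third 3B siARD1 library to 16 without the third Huh-7 siARD1 library. The 19 above 0 ran only from 16 to 20.

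Some charging enzymes of protein synthesis rose in both lines. Of 20 cytosolic aminoacyl-tRNA synthetase genes, 7 rose in both lines and 2 moved opposite ways, with 7 up and 3 down in 3B (median 0.0679) and 17 up and 0 down in Huh-7 (median 0.349). Among the shared rises were the genes for the alanine, isoleucine, methionine and asparagine enzymes. AARS1 rose by 0.31 and 0.41, IARS1 by 0.28 and 0.35, MARS1 by 0.22 and 0.35 and NARS1 by 0.30 and 0.35, in 3B and Huh-7 respectively. AARS1 stood at 589, 799 and 793 CPM in the 3B controls and at 918, 828 and 956 CPM after siARD1, so the first control was again the low one. Without that library the 3B calls of AARS1, IARS1 and MARS1 were lost (edgeR adjusted p = 0.0732, 0.0825 and 0.165) and 4 synthetase genes rose in both lines, while the call of NARS1 was kept. With upper-quartile factors, or without the third 3B siARD1 library, 3 synthetase genes rose in both lines. The 3B call of AARS1 is weak in general, and those of IARS1 and MARS1 were also lost without the third siARD1 library (edgeR adjusted p = 0.0676 and 0.0581). That of AARS1 was also lost with 2 other scalings, with limma-voom, with no filter and with each line fitted alone (adjusted p from 0.0527 to 0.0865). Opposite ways went HARS1 (-0.56 in 3B, 0.20 in Huh-7) and FARSA (-0.26 and 0.51), the histidyl enzyme and the alpha subunit of the phenylalanyl enzyme. Neither opposite call is firm. The Huh-7 call of HARS1 was lost with upper-quartile factors (edgeR adjusted p = 0.0895), with the GC trend removed (0.0582) and without the first or second control or the third siARD1 library of Huh-7 (0.0746 to 0.118). The 3B call of FARSA was lost without the third 3B control (edgeR adjusted p = 0.102) and with the GC trend removed (0.158).

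These 4 promoters carry the same 9 letters, which is why they are shown. The element searched was the C/EBP-ATF response element, written TGATGNAAN and read on both strands, in the 300 bases from 250 before to 50 after each gene's start in the RefSeq promoter table of GRCh38.p14. Together with 2 amino acid transporter genes that also rose in both lines, the windows read as follows, 5′ to 3′ on the gene's strand, with the match in capitals.
AARS1: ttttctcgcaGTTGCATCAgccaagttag
IARS1: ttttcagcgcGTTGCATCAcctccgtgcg
MARS1: gccggttccgGTTGCATCAgcgagggatt
NARS1: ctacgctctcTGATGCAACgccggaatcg
SLC38A1: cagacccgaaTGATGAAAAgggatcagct
SLC3A2: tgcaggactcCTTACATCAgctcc
They lie at chr16:70289676-70289704 (AARS1, minus strand), chr9:92293693-92293721 (IARS1, minus), chr12:57488053-57488081 (MARS1, plus), chr18:57621804-57621832 (NARS1, minus), chr12:46266502-46266530 (SLC38A1, minus) and chr11:62881725-62881748 (SLC3A2, plus). In AARS1, IARS1, MARS1 and SLC3A2 the match runs on the strand opposite to the gene.

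A match was found in 6 of the 16 synthetase genes that have a promoter in the table, against 1.78% of the 12273 promoters of all tested genes. Of those 6, 4 rose in both lines and 6 rose in Huh-7. Of the 10 without a match, 2 rose in both and 8 rose in Huh-7. The ATF4 targets did not show this split: of 27 with a promoter, 6 held a match, of which 1 rose in both lines and 4 rose in Huh-7. Of the 21 ATF4 targets without a match, 2 rose in both and 17 rose in Huh-7. Among all shared rises with a promoter, 17 of 473 held a match (3.59%). For shared falls it was 7 of 422 (1.66%), for rises in Huh-7 with falls in 3B 9 of 465 (1.94%) and for the reverse 5 of 408 (1.23%). The AP-1 site TGANTCA was in 6.77% of shared rises and 4.85% of all promoters, and the sterol element TCACNCCAC in 0.711% of shared falls and 1.12% of all. The CRE site TGACGTCA, which CREB5 is known to bind, was in 3.38% of shared rises and 3.11% of all, and the antioxidant core TGANNNNGC in 46.3% and 43.4%. A match is a run of letters only, and its part in the response was not tested.

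Transporter and signalling genes followed the synthetases. SLC38A1, a neutral amino acid transporter gene, rose by 0.43 in 3B and 0.56 in Huh-7, and its 3B call was lost without the second 3B siARD1 library (edgeR adjusted p = 0.0612) and with the GC trend removed (0.29, 0.0869). In the list of YAP and TAZ targets, genes switched on by the Hippo pathway's coactivators, 6 of 20 rose in both lines (9 up and 0 down in 3B, 12 up and 2 down in Huh-7, medians 0.250 and 0.477). With upper-quartile factors 3 rose in both and 2 fell in 3B, and without the first 3B siARD1 library 4 rose in both. THBS1, the thrombospondin gene in that list, went from 12.5, 14 and 14.1 to 48.7, 62.2 and 54.8 CPM in Huh-7 (2.03). In 3B it went from 77.7, 96.7 and 94.4 to 106, 104 and 109 CPM (0.25), so its response was far larger in the line with the lower level (difference 1.78, edgeR adjusted p = 8.55e-11). Its 3B call was lost without the first 3B control (edgeR adjusted p = 0.168) or the first or the third siARD1 library (0.0539 and 0.0663). Proteasome subunit genes rose mainly in Huh-7. Of 31, 7 rose and 3 fell in 3B (median -0.00747), against 16.8% and 15.1% of all genes, and 19 rose and 0 fell in Huh-7 (median 0.207). The difference was above 0 for 14 and below 0 for 1, and 6 rose in both lines. That shared count fell to 1 without the first Huh-7 control and to 3 without the first 3B control or with upper-quartile factors.

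The largest shared falls were likewise in genes of varied function. INSIG1, the sterol-regulated gene of an ER protein that holds back SREBP processing, went from 238, 177 and 183 to 124, 106 and 129 CPM in 3B. In Huh-7 it went from 112, 131 and 124 to 75.9, 72.5 and 69.5 CPM. All siARD1 libraries lay below all controls in both lines, and INSIG1 fell by nearly the same fold in both lines (-0.74 and -0.75, SE of the difference 0.15). Also falling in both were LRG1, a secreted glycoprotein gene (-1.11 and -0.93), the tight junction scaffold gene TJP3 (-0.85 and -0.85), the histone gene H2BC21 (-1.22 and -0.80), METTL7A, a methyltransferase gene (-0.72 and -0.95), and CDK5RAP3 (-0.73 and -0.84).

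Transcripts of many lipid synthesis genes, though not all, fell in both lines. Of 25 cholesterol synthesis and uptake genes, 20 fell and 1 rose in 3B (median -0.510) and 10 fell and 2 rose in Huh-7 (median -0.184). All 10 that fell in Huh-7 fell in both lines. The fall was larger in 3B for most that differed, with 13 differences above 0 and 3 below. FDFT1, the squalene synthase gene, fell by 0.72 in 3B and by 0.18 in Huh-7 (difference 0.54, edgeR adjusted p = 2.08e-05), and its Huh-7 call was lost in 4 of the fits that left out a Huh-7 library (0.0592 to 0.106). DHCR7, the last enzyme of the pathway, stood at 222, 203 and 184 CPM in the 3B controls and 133, 124 and 121 CPM after siARD1. In Huh-7 it stayed within 364 to 383 CPM in all 6 libraries (difference 0.66, edgeR adjusted p = 1.76e-06). ACAT2, a thiolase gene at the pathway's start, moved opposite ways (-0.51 and 0.26), though its Huh-7 call was lost without the first Huh-7 control (0.19, edgeR adjusted p = 0.0792). Of 19 fatty acid synthesis genes 7 fell and 2 rose in both lines, with 10 down in 3B and 11 in Huh-7. SREBF1, which encodes the lipogenic activator, went from 486, 446 and 400 to 201, 191 and 198 CPM in 3B and from 152, 169 and 162 to 113, 105 and 105 CPM in Huh-7. It fell further in 3B (-1.18 against -0.58, edgeR adjusted p of the difference 1.31e-05), as did the desaturase gene SCD (-1.04 against -0.46, 4.04e-06).

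Sugar breakdown and oxygen-sensing genes fell in each line, only in part the same ones. Of 22 glycolysis genes, 14 fell and 0 rose in 3B, 10 fell and 2 rose in Huh-7, 6 fell in both, and the difference was above 0 for 4 and below 0 for 1. With the GC trend removed 9 fell and 0 rose in 3B, and with each line fitted alone 7 fell and 1 rose in Huh-7. The count of shared falls ran from 3 to 9 when 1 library was left out. PGK1, the phosphoglycerate kinase gene, fell by 0.44 and 0.36 from levels of 3721 to 4010 CPM and 353 to 420 CPM, and ALDOC, an aldolase gene, by 0.81 and 0.56. Neither difference passed (edgeR adjusted p = 0.628 and 0.0645), although that of ALDOC passed in 6 of the alternatives. Of 26 hypoxia-induced genes 13 fell in each line and 5 in both, and the difference was above 0 for 5 and below 0 for 10. A pair rose in 3B and fell in Huh-7: the mitophagy receptor gene BNIP3L (0.19 and -0.90) and ERO1A, an ER oxidase gene (0.37 and -0.44). The 3B call of BNIP3L was lost with upper-quartile factors (edgeR adjusted p = 0.053), without the second 3B control or the first or the third 3B siARD1 library (0.0524 to 0.0833) and with the GC trend removed (0.974). The 3B rise of ERO1A was lost with the GC trend removed (0.15, edgeR adjusted p = 0.059). Of 14 replication-dependent histone genes 12 fell in 3B, 6 in Huh-7 and 5 in both. Their summed level did not fall in 3B, at 821 CPM in the controls and 875 CPM after siARD1. In Huh-7 the sums were 413 and 290 CPM. H1-2 fell by 1.39 and 0.34 (difference 1.05, edgeR adjusted p = 7.90e-06). Its Huh-7 call was lost without the third control, the first or the third siARD1 library (edgeR adjusted p = 0.0843, 0.0937 and 0.0693). The shared count of histone genes was 1 without the first Huh-7 siARD1 library. Histone genes have near-identical copies, so the reads given to each are uncertain.

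Secreted liver protein genes fell in both lines, although most are abundant in only 1 of them. Of 31 tested, 15 fell and 0 rose in 3B (median -1.09), 18 fell and 0 rose in Huh-7 (median -0.311), and 7 fell in both. Of the 11 with at least 5 CPM in the 3B controls, 9 fell in 3B and 6 in Huh-7. FGB, the fibrinogen beta chain gene, went from 330, 390 and 316 to 144, 144 and 150 CPM in 3B. In Huh-7 it was at 1577, 1913 and 1771 CPM and then at 1532, 1562 and 1984 CPM, where the groups overlapped (difference 1.19, edgeR adjusted p = 1.60e-05). The other 20 members stood under 5 CPM in 3B, ALB and AFP among them. Over 29 genes at 100 CPM or more in Huh-7 and at least 1000-fold lower in 3B, the 3B controls held 0.0427 to 0.0572% of the Huh-7 control level and the 3B siARD1 libraries 0.0165 to 0.0235%. The part of that change in the falls of members under 5 CPM was not tested. ALB and AFP meet the rule for those genes by their own levels, so the share is no separate measure for them. In a bulk sample, fewer cells with a transcript and less of it per cell cannot be told apart.

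**Figure D2:**
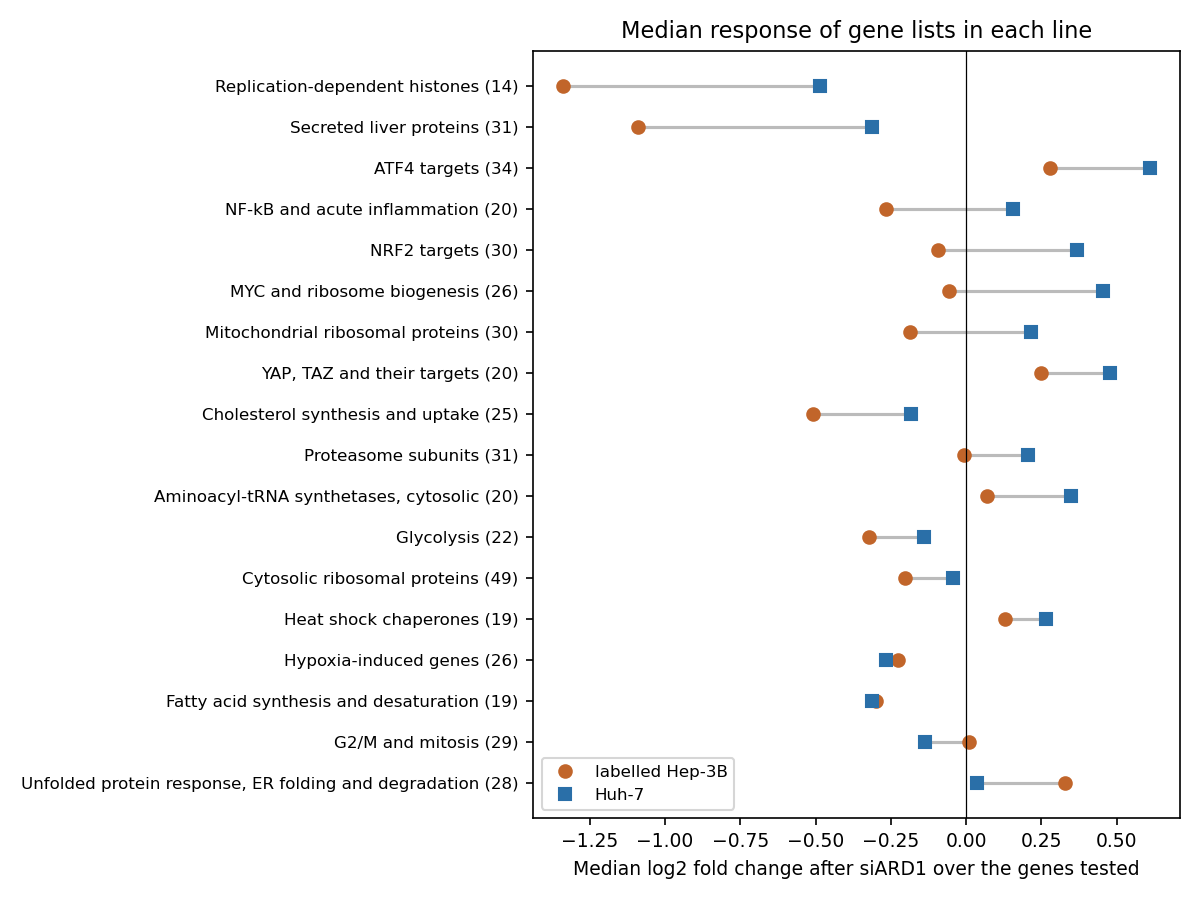
Median log2 fold change after siARD1 (x axis) over the tested members of each gene list (number in brackets) in the libraries labelled Hep-3B (circles) and in Huh-7 (squares), ordered by the median difference. NRF2, NF-kB and mitochondrial ribosome lists lie on opposite sides of 0, as does the MYC list, whose 3B median of -0.0568 turns to 0.0141 with the GC trend removed, while lipid, sugar and liver protein lists lie below 0 in both lines.

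Antioxidant genes under NRF2, the factor that answers oxidants and electrophiles, had higher responses in Huh-7 than in 3B. Of 30 targets, 3 rose and 10 fell in 3B (median -0.092) and 20 rose and 1 fell in Huh-7 (median 0.370). The difference was above 0 for 18 and below 0 for 0 of them. Of the 30, 6 rose in Huh-7 and fell in 3B, 3 rose in both and 1 fell in both. With the GC trend removed the 3B median was -0.0393, with 5 up and 12 down. The pattern of the list thus rests on the Huh-7 rises and the difference. AKR1C2 (ENSG00000151632, chromosome 10, 4987400 to 5018031), an aldo-keto reductase gene, stood at 1306, 1392 and 1339 CPM in the 3B controls and at 1145, 1024 and 1202 CPM after siARD1. In Huh-7 it went from 91.7, 92.0 and 89.1 to 424, 475 and 440 CPM (difference 2.56, SE 0.09, edgeR adjusted p = 4.56e-18). OSGIN1 (ENSG00000140961, chromosome 16, 83948282 to 83966332), an oxidative stress-induced gene, had the largest difference above 0 among genes at 5 CPM or more in both controls. It went from 61.7, 78.4 and 84.1 to 51.0, 54.6 and 53.6 CPM in 3B and from 14.8, 11.9 and 13.5 to 61.0, 65.7 and 49.6 CPM in Huh-7. The siARD1 libraries of both lines thus ended near the same level (difference 2.63, edgeR adjusted p = 2.28e-09). UGDH, the UDP-glucose dehydrogenase gene, fell by 0.56 in 3B and rose by 0.88 in Huh-7. AKR1B10, a further aldo-keto reductase gene named after its values were seen, stood at 329 to 374 CPM in the 3B controls and 199 to 256 CPM after siARD1. In Huh-7 it was at 0.372, 0 and 0.0839 CPM and then at 14.4, 15.4 and 13.4 CPM. The AKR1 genes have close relatives, so their reads are uncertain. SQSTM1, the autophagy receptor gene p62, rose in Huh-7 from 232, 222 and 229 to 609, 610 and 570 CPM. In 3B its 453 to 533 CPM overlapped the 471 to 483 CPM after siARD1 (difference 1.45, edgeR adjusted p = 5.76e-13).

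Inflammation genes likewise had higher responses in Huh-7 than in 3B. Of 20 NF-kB and acute inflammation genes, 0 rose and 9 fell in 3B (median -0.267), 8 rose and 2 fell in Huh-7 (median 0.155), and the difference was above 0 for 12 and below 0 for 1. NFKBIA, the feedback inhibitor gene of NF-kB, went from 66.4, 59.2 and 68.6 to 42.4, 35.1 and 40.2 CPM in 3B. In Huh-7 it went from 37.8, 40.0 and 40.9 to 50.5, 59.6 and 58.3 CPM, so no group overlapped its control in either line (difference 1.23, edgeR adjusted p = 6.42e-09). NFKB1, the p105 subunit gene, fell by 0.30 in 3B and rose by 0.58 in Huh-7. GBP2, an interferon-induced GTPase gene, did likewise (-0.65 and 1.01).

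Genes of growth and of the mitochondrial ribosome had higher responses in Huh-7. MYC, the growth-driving transcription factor gene, went from 258, 287 and 302 to 180, 216 and 188 CPM in 3B and from 39.0, 29.3 and 29.8 to 106, 99.0 and 85.8 CPM in Huh-7. All siARD1 values lay below the controls in 3B and above them in Huh-7 (difference 2.11, SE 0.16, edgeR adjusted p = 2.17e-07). Of 26 MYC and ribosome biogenesis genes, 5 rose and 6 fell in 3B, 19 rose and 3 fell in Huh-7, and 15 differences were above 0 against 2 below. The 3B median of this list was -0.0568, and 0.0141 with the GC trend removed, so its direction in 3B is not settled. The Huh-7 median was 0.455, and 18 to 20 genes rose there when 1 library was left out. With the GC trend removed the difference was still above 0 for 15 and below 0 for 2. POLR1B, a subunit gene of RNA polymerase I, which transcribes ribosomal RNA, fell by 0.28 and rose by 0.76, and its 3B call was lost without the third 3B control (-0.20, edgeR adjusted p = 0.0778). Of 30 mitochondrial ribosomal protein genes, 2 rose and 14 fell in 3B (median -0.187), 13 rose and 1 fell in Huh-7 (median 0.215), and the difference was above 0 for 17 and below for 0. MRPS30 went from 81.1, 77.9 and 81.8 to 53.6, 62.7 and 57.9 CPM in 3B and from 64.5, 71.0 and 72.1 to 88.8, 86.1 and 81.4 CPM in Huh-7. Of 49 cytosolic ribosomal protein genes 22 fell in 3B and 3 in Huh-7, with 13 differences above 0 and 0 below. With the GC trend described further on removed, 8 were above and 1 below, near the all-gene share of 15.2% above, with a median difference of 0.0186.

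The endoplasmic reticulum response ran the other way. Of 28 genes of the unfolded protein response and ER folding, 22 rose and 0 fell in 3B (median 0.329), while 2 rose and 7 fell in Huh-7 (median 0.036). The difference was below 0 for 17 and above 0 for 0 of them, a count that held at 17 with the GC trend removed. SEL1L, the adaptor gene of ER-associated degradation, went from 145, 154 and 159 to 339, 340 and 357 CPM in 3B, and was at 148 to 169 CPM in the Huh-7 controls and 141 to 153 CPM after siARD1 (difference -1.29, edgeR adjusted p = 7.72e-12). HSP90B1, the ER chaperone gene GRP94, rose by 0.23 in 3B and fell by 0.33 in Huh-7, and EDEM3, an ER mannosidase gene, rose by 0.33 and fell by 0.32. The 3B rises of both did not pass with the GC trend removed (edgeR adjusted p = 0.0570 and 0.275).

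**Figure D3:**
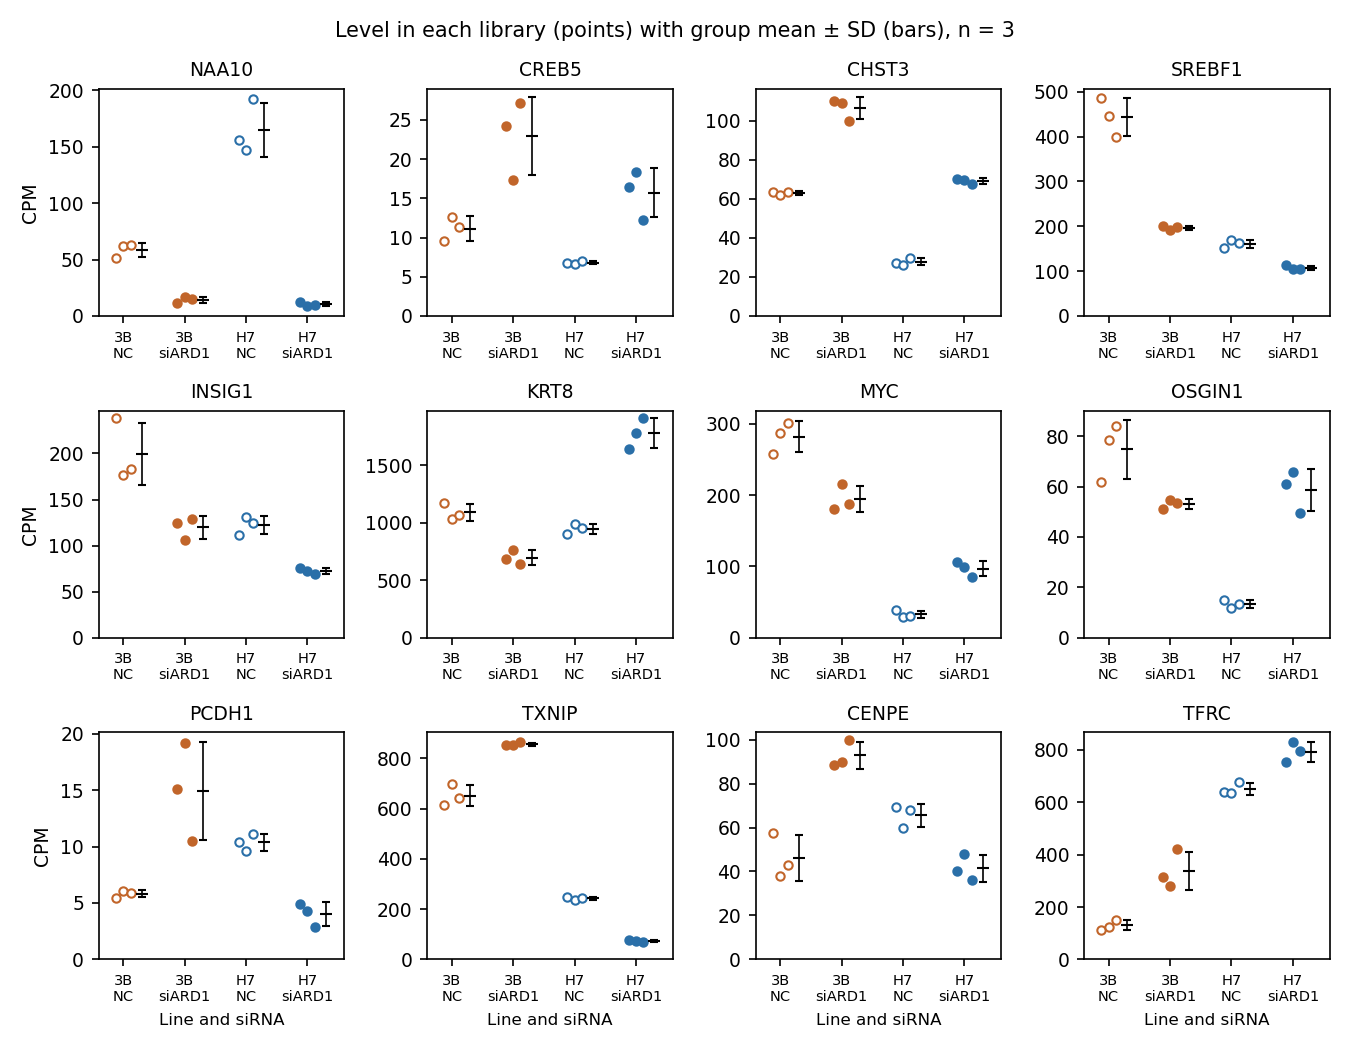
Level in CPM (y axis, from 0) of 12 genes in each of the 12 libraries, controls as open and siARD1 libraries as filled points, with the mean and SD of each group of 3 as bars; 3B stands for libraries labelled Hep-3B and H7 for Huh-7. KRT8, MYC and OSGIN1 fell in 3B and rose in Huh-7, PCDH1, TXNIP and CENPE did the reverse, and CREB5, CHST3, SREBF1 and INSIG1 moved the same way in both.

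Among single genes, several rose in Huh-7 and fell in 3B by a large fold. KRT8 (ENSG00000170421, chromosome 12, 52897187 to 52949954), a keratin gene of simple epithelia, went from 1168, 1033 and 1066 to 685, 764 and 641 CPM in 3B and from 901, 987 and 957 to 1643, 1782 and 1907 CPM in Huh-7. The lines began near the same level and ended apart, every Huh-7 siARD1 library above every 3B one (difference 1.55, SE 0.10, edgeR adjusted p = 1.92e-12). Its filament partner KRT18 did the same (-0.41 and 1.02). IGFBP3, a secreted binding protein of insulin-like growth factors, fell by 0.61 from 414 to 484 CPM in 3B and rose by 1.03 from 6.75 to 7.67 CPM in Huh-7. Others were LAD1, a basement membrane anchor gene (-0.92 and 1.04), AP1M2, a clathrin adaptor gene of epithelia (-0.73 and 0.74), NNMT, which methylates nicotinamide (-0.80 and 0.71), BEND3, a chromatin repressor gene (-0.68 and 0.72), and ALG14, an enzyme gene of N-glycan assembly (-0.90 and 0.59). Among genes at 5 CPM or more in both controls, SPP1, the osteopontin gene (-0.45 and 1.85), LOXL4, a lysyl oxidase gene of the matrix (-0.50 and 1.60), and P3H2, a collagen prolyl hydroxylase gene (-0.50 and 1.39), had large differences that came mostly from Huh-7. MYOF, a membrane repair gene, rose by 1.93 in Huh-7 with a 3B value of 0.21 that did not pass.

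Genes falling in Huh-7 and rising in 3B with the largest changes in both also differed in function. PCDH1 (ENSG00000156453, chromosome 5, 141853111 to 141879246), a protocadherin gene, went from 5.47, 6.09 and 5.89 to 15.1, 19.2 and 10.5 CPM in 3B and from 10.4, 9.61 and 11.1 to 4.94, 4.28 and 2.85 CPM in Huh-7. The order of the lines was thereby turned round, with a difference of -2.72 (SE 0.27, edgeR adjusted p = 1.38e-07). TXNIP, the glucose-induced arrestin gene that holds back glucose uptake, went from 616, 696 and 643 to 851, 853 and 863 CPM in 3B and from 247, 236 and 244 to 76.9, 73.6 and 69.1 CPM in Huh-7 (difference -2.12, edgeR adjusted p = 6.39e-17). CENPE, the mitotic kinesin gene of kinetochores, went from 57.7, 37.8 and 42.9 to 88.6, 89.7 and 100 CPM in 3B and from 69.2, 59.6 and 68.0 to 40.1, 48.1 and 36.1 CPM in Huh-7. Of 29 G2/M and mitosis genes, 6 rose and 4 fell in 3B, 0 rose and 7 fell in Huh-7, and the difference was below 0 for 8 and above 0 for 3. The 3B counts are near the shares over all genes (16.8% up and 15.1% down), and 2 of the 29 moved opposite ways. CDS1, a CDP-diacylglycerol synthase gene of phosphoinositide supply (1.09 in 3B, -0.89 in Huh-7), IER3IP1, a secretory pathway gene (1.80 and -0.85), and JAZF1, a zinc finger gene (0.81 and -1.04), belonged here too. So did LCA5, a ciliary gene (0.72 and -1.05), C9orf72 (0.80 and -0.71), and GNAZ, a G protein alpha subunit gene (0.69 and -0.95). RAB37, a secretory GTPase gene, rose by 0.65 and fell by 1.46. LIF, a cytokine gene, fell by 2.06 in Huh-7, ICAM5, an adhesion gene, by 2.21 and GCNT1, a glycan-branching enzyme gene, by 1.68, with 3B values of 0.14, 0.17 and 0.22 that did not pass.

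The genes of glutathione and ferroptosis did not share 1 pattern. GCLC, the catalytic subunit gene of glutamate-cysteine ligase, which starts glutathione synthesis, went from 60.5, 54.2 and 57.7 to 33.9, 50.9 and 45.9 CPM in 3B and from 40.7, 38.6 and 41.3 to 27.5, 27.7 and 26.8 CPM in Huh-7. It fell in both lines (-0.39 and -0.56), and the difference of -0.16 (SE 0.14) did not pass (edgeR adjusted p = 0.409). GCLM, the regulatory subunit gene, rose in Huh-7 (0.56) with a 3B value of 0.23 that did not pass, and its difference of 0.33 did not pass either (edgeR adjusted p = 0.126). The difference passed without the first 3B control (0.49, edgeR adjusted p = 0.000207), with DESeq2 (0.36, adjusted p = 0.0473) and with the GC trend removed (0.67, 0.00509). The 3B value of GCLM passed with the replicate block (edgeR adjusted p = 0.0342) and without the third 3B control (0.00743) or the second 3B siARD1 library (0.0497). SLC7A11, the cystine-carrying subunit of the importer, rose from 103, 106 and 126 to 202, 164 and 195 CPM in 3B and from 66.6, 47.2 and 55.5 to 125, 109 and 72.8 CPM in Huh-7 (0.74 and 0.86, difference not called). Its 3B call was lost without the first or second control or the first or the third siARD1 library (edgeR adjusted p from 0.0655 to 0.0769) and with the GC trend removed (0.36, 0.234). Its Huh-7 call was lost with each line fitted alone (edgeR adjusted p = 0.0623). SLC3A2, the importer's anchor subunit, rose in both and more in Huh-7 (0.39 and 1.22, difference 0.84, edgeR adjusted p = 5.94e-05).

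Of the other genes of lipid peroxide control, GPX4, the lipid peroxide reductase gene, was called in neither line (0.08 and 0.15, difference 0.07). Its Huh-7 value passed in 7 of the alternatives, and its 3B value passed with the GC trend removed (0.18, edgeR adjusted p = 0.0427). AIFM2, the gene of the ubiquinone reductase FSP1, stood at 60.5, 73.4 and 72.7 CPM in the 3B controls and 77.0, 70.0 and 72.6 CPM after siARD1. In Huh-7 it rose from 35.5, 39.5 and 38 to 56.5, 66.5 and 65.9 CPM (difference 0.65, edgeR adjusted p = 5.35e-05). ACSL4, which activates polyunsaturated fatty acids for membranes, moved opposite ways, from 152, 160 and 144 to 179, 184 and 180 CPM in 3B and from 300, 319 and 321 to 225, 258 and 267 CPM in Huh-7 (0.25 and -0.33, difference -0.58, edgeR adjusted p = 1.12e-05). With the GC trend removed its 3B value was -0.01 and did not pass (edgeR adjusted p = 0.898). TFRC, the transferrin receptor gene, went from 114, 125 and 151 to 313, 279 and 421 CPM in 3B and from 640, 637 and 678 to 752, 829 and 794 CPM in Huh-7. The groups did not overlap in either line, and the Huh-7 value of 0.28 did not pass (edgeR adjusted p = 0.169), although it did with each line fitted alone (0.000198), with the replicate block (0.000681) and without the third 3B siARD1 library (0.00562). The lines differed (difference -1.10, edgeR adjusted p = 0.00239). The NatA anchor NAA15 rose in 3B (0.58) with 0.09 in Huh-7 (difference -0.49, edgeR adjusted p = 0.0228), and that difference was lost without the third 3B control, the first or the third Huh-7 siARD1 library (0.0540 to 0.0681) and with the GC trend removed (0.472). NAA50 went from 172, 141 and 150 to 259, 272 and 283 CPM in 3B and was at 229 to 264 and 220 to 267 CPM in Huh-7 (difference -0.81, edgeR adjusted p = 3.59e-06).

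The response varied with the gene's control level in each line. Over all genes tested this was clearest for genes that are high in Huh-7, many of them near 0 in 3B. Genes were classed by the fitted difference of the controls. The 2149 genes at least 4-fold higher in the Huh-7 controls, with a median control level of 0.237 CPM in 3B and 5.79 CPM in Huh-7, tended to fall in Huh-7. There 26.8% fell and 7.72% rose (median -0.220), against 16.6% and 16.4% of all genes. In 3B the same genes had 15.4% rising and 5.63% falling (median 0.272). The 2100 genes at least 4-fold higher in the 3B controls showed less: 18.1% fell and 12.4% rose in 3B (median -0.0707), and 12.1% fell and 13.1% rose in Huh-7 (median -0.0311). Among the 8966 genes within 2-fold, 17.9% rose and 17.1% fell in 3B and 19.6% rose and 14.8% fell in Huh-7. A control library counts in both the class and the response, so the level was also taken from control 1 of each line and the response from controls 2 and 3. The Huh-7-high genes then had 24.6% falling and 6.83% rising in Huh-7, and 12.9% rising and 5.47% falling in 3B. Among the 244 Huh-7-high genes with at least 5 CPM in the controls of both lines, 36.1% rose and 20.9% fell in 3B (median 0.0933), and 16.0% rose and 32.4% fell in Huh-7 (median -0.0864). The 451 3B-high genes with that minimum had 18.8% rising and 30.2% falling in 3B (median -0.0723), and 27.9% rising and 25.1% falling in Huh-7 (median -0.00713). With that minimum, the share falling in the line with the higher level was thus similar for both classes.

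**Figure D4:**
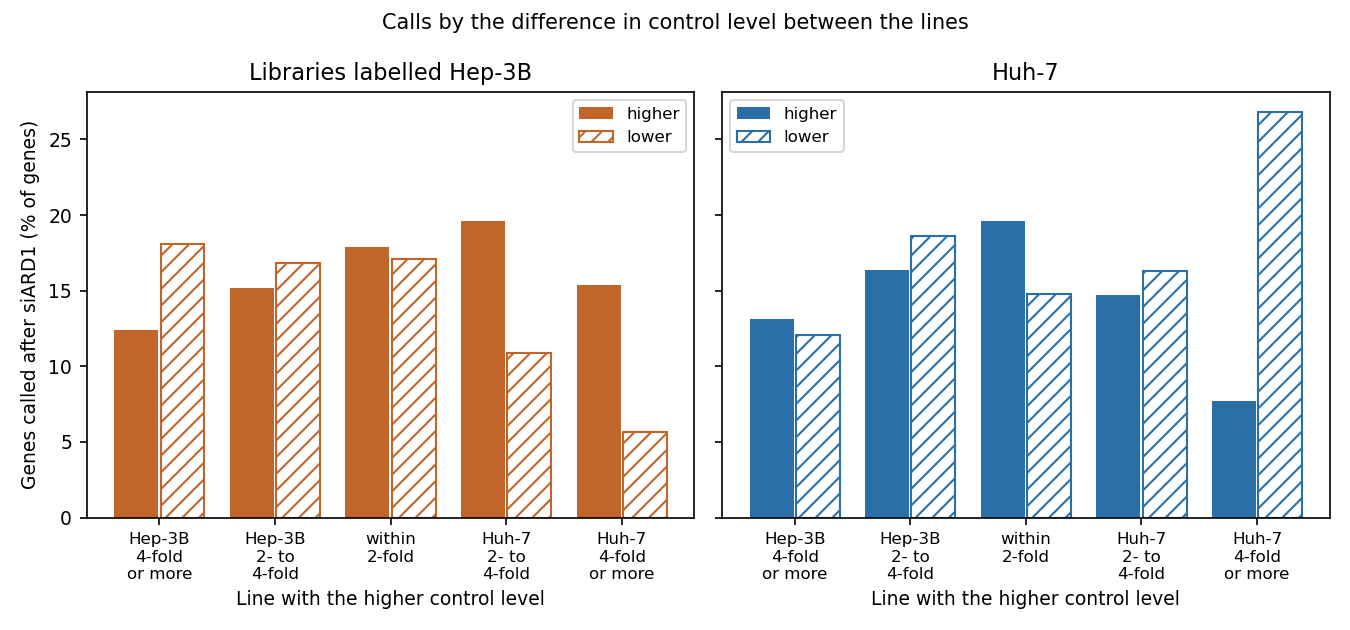
Percentage of tested genes called higher (filled bars) or lower (hatched bars) after siARD1 (y axis) in the libraries labelled Hep-3B (left) and in Huh-7 (right), by how the control levels of the lines differ (x axis). In Huh-7, 26.8% of the genes at least 4-fold higher there fell and 7.72% rose, while in 3B the same genes had 5.63% falling and 15.4% rising.

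Genes with opposite responses and a large control difference mostly moved toward the level of the other line. Of 203 opposite genes with at least a 4-fold control difference, 155 fell where they were higher and rose where they were lower (76.4%, Wilson 95% interval 70.1 to 81.7, which covers counting error only and treats genes as independent, which they are not). At a 2-fold difference it was 66.7%, with 294 toward and 147 away. With the level from control 1 and the response from the other controls it was 137 of 179 (76.5%). Among those with at least 5 CPM in both controls it was 58 of 87 (66.7%), with 36 toward and 9 away among genes rising in Huh-7 and 22 toward and 20 away among genes falling in Huh-7. AKR1C2, SPP1, MYC, IGFBP3 and GBP2 are examples of the first kind, each higher in the 3B controls. At smaller control differences TXNIP, LCA5 and LOXL4 went the other way: they fell where they were already lower or rose where they were already higher.

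Genes present in 1 line only fell more often than they rose in that line. Of 44 genes at 100 CPM or more in the Huh-7 controls and under 1 CPM in 3B, 28 fell and 4 rose in Huh-7 (median -0.319). HP, the haptoglobin gene, went from 269, 356 and 312 to 104, 90.3 and 143 CPM. FABP1, the liver fatty acid binding protein gene, went from 354, 474 and 424 to 178, 152 and 200 CPM, and PLG, the plasminogen gene, from 142, 152 and 138 to 58.6, 50.4 and 62.5 CPM. ARG1, the arginase gene of the urea cycle, fell by 1.33. Of 47 genes with the reverse pattern, 17 fell and 6 rose in 3B (median -0.0588). CA9, the hypoxia-induced carbonic anhydrase gene, went from 168, 181 and 182 to 105, 91.2 and 101 CPM, KRT20 from 167, 161 and 182 to 102, 111 and 87.9 CPM, and the cholesterol transport gene GRAMD1B fell by 0.69. Within a line, the share of calls rose with the level, while the median absolute log2 response fell. That median went from 0.564 under 1 CPM to 0.169 at 100 CPM or more in 3B, and from 0.548 to 0.155 in Huh-7. The share of calls therefore does not show that genes at higher levels responded more. In 3B the share was 7.17% up and 1.77% down under 1 CPM, and 21.2% and 27.5% at 100 CPM or more. In Huh-7 it was 3.96% and 5.36% under 1 CPM, and 26% and 20.9% at 100 CPM or more, with 8.45% up and 19.1% down between 1 and 10 CPM.

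The GC content of the transcripts moved with the 3B response and little with that of Huh-7. Over 10850 genes with at least 5 CPM in the 3B controls, Spearman's rho between the 3B response and the GC content of the gene's longest transcript was -0.371, and with its length 0.157. In Huh-7 these were 0.0388 and -0.0441 over 10857 genes, chosen likewise across all Huh-7 libraries. The genes with at least 5 CPM in the controls of both lines were put in 5 equal bins by GC content. The median 3B response went from 0.227 in the lowest bin to -0.101 in the highest, and the Huh-7 median from -0.0245 to 0.0147. Opposite genes were split by GC content. Without that minimum level, those falling in Huh-7 and rising in 3B had a median GC content of 41.5%, and those rising in Huh-7 and falling in 3B had 51.7%. Within the bins, the former numbered 202 in the lowest and 41 in the highest, and the latter 22 and 121. With a smooth trend on GC content and length removed from each line's response, a choice made after seeing the data, 354 of the 556 genes rising in Huh-7 and falling in 3B kept their call (63.7%), as did 327 of the 530 of the reverse (61.7%). Of shared rises 71.9% kept it and of shared falls 68.3%, and 0 genes changed to the reverse class. On the lists, 18 NRF2 differences above 0, 12 NF-kB and 15 MYC and ribosome biogenesis differences were called with the trend removed, and 13 of mitochondrial ribosomal proteins. What lies behind the GC trend was not tested, and it cannot be told apart from siARD1 in 3B.

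**Figure D5:**
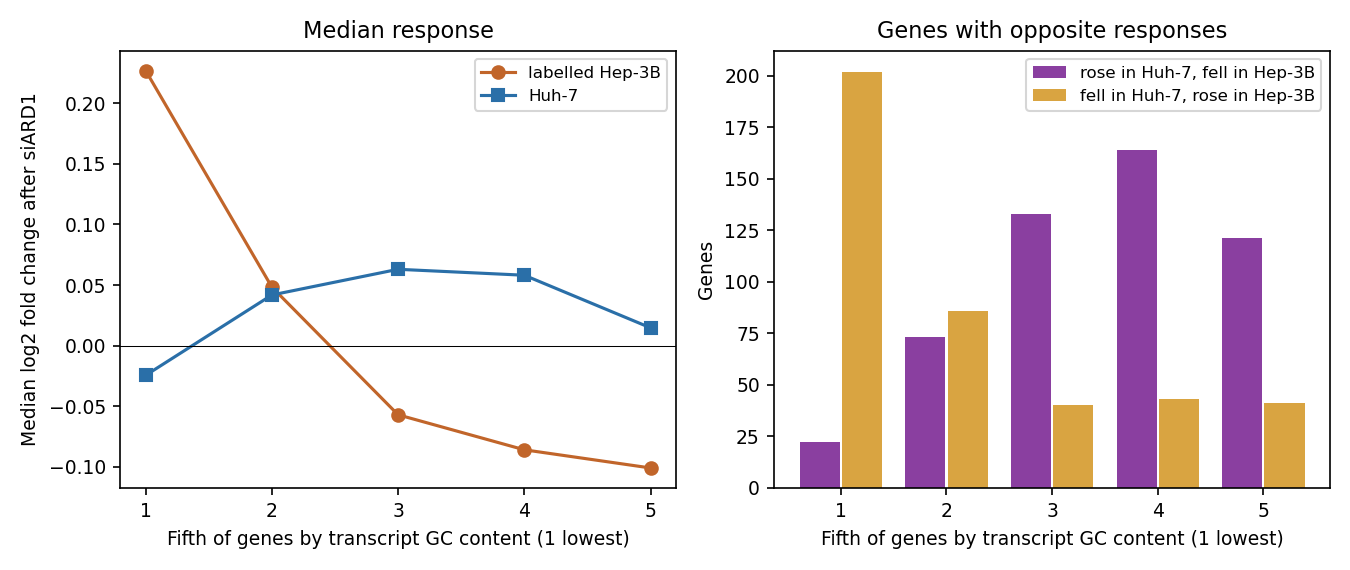
Genes with at least 5 CPM in the controls of both lines were put in 5 equal bins by transcript GC content (x axis). Left, median log2 fold change after siARD1 (y axis) in each bin for the libraries labelled Hep-3B (circles) and Huh-7 (squares). Right, number of genes with opposite responses in each bin. The 3B median falls from 0.227 to -0.101 while that of Huh-7 stays between -0.0245 and 0.0630, and genes rising in 3B and falling in Huh-7 are most numerous in the lowest bin, at 202.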

How the data were processed

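RNA of 12 samples was sequenced after removal of ribosomal RNA, with a directional kit, per the labels' protocols. The authors deposited 1 table of raw read counts per gene for each line, trimmed with cutadapt 4.6 and aligned with STAR 2.7.11b to GRCh38, per the submitters' processing notes. Nothing read here states the counting tool, its annotation or its strand setting, so overlapping and antisense genes may share reads.

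The tables were joined on gene identifier, and genes listed in only 1 of them (2990 and 2984) were left out. Genes were filtered with filterByExpr over the 4 groups (minimum count 10, total 15) and scaled by TMM. All 12 libraries entered 1 edgeR 4.0.16 quasi-likelihood fit with robust dispersion and no covariate. Its contrasts are siARD1 minus control in each line, and the Huh-7 contrast minus that of 3B. P-values were adjusted by Benjamini-Hochberg over all genes tested, at 0.05. Standard errors are the absolute log2 fold change divided by the square root of F, and CPM uses TMM-scaled totals. An exact permutation test of 3 against 3 libraries cannot go below 0.1, so single genes rest on the fit across genes. The scripts were tested on simulated data.

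Named genes were up to 8 of each shared and opposite class by the smaller absolute change, up to 8 differences each way, up to 4 genes high in 1 line only and up to 3 per list, with a mean of at least 5 CPM in each line for the classes. NAA10, its partners and glutathione and ferroptosis genes were added. A gene chosen by this rule is not reported here. AARS1, IARS1, MARS1, NARS1, SLC38A1 and AKR1B10 were chosen after their values were seen. Members, lists and tests were chosen with earlier results of these data known. Gene positions come from GENCODE on GRCh38, and promoter sequences from the RefSeq table of GRCh38.p14. Alternatives used DESeq2 1.42.0, limma-voom 3.58.1, other scalings, filters and thresholds, a replicate block, single libraries left out and, added after seeing the data, a GC and length trend removed with mgcv 1.9.3 and a minimum of 5 CPM.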

Additional observations from a re-analysis of the deposited data

Results flagged for a closer look

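Each value here is a difference between the lines, the log2 response of Huh-7 minus that of 3B, which passed edgeR's test of the difference itself with Benjamini-Hochberg adjustment. Over all genes, 2607 had a higher and 2773 a lower response in Huh-7. Among the target and its NatA partners, it was -2.0 for NAA10, -0.49 for NAA15 and -0.81 for NAA50. Among transport, lipid peroxide and iron genes, it was 0.84 for SLC3A2, 0.65 for AIFM2, -0.58 for ACSL4 and -1.10 for TFRC. Among shared movers of unequal size, it was -0.63 for TIGAR (lost in 7 fits that left out a library), 0.56 for CHST3, 1.78 for THBS1, 0.60 for SREBF1, 0.58 for SCD, 0.54 for FDFT1 and 1.05 for H1-2. Among epithelial, secreted and matrix genes, it was 1.55 for KRT8, 1.43 for KRT18, 1.97 for LAD1, 1.47 for AP1M2, 1.64 for IGFBP3, 2.30 for SPP1, 2.10 for LOXL4, 1.89 for P3H2 and 1.72 for MYOF. Among antioxidant and autophagy genes, it was 2.63 for OSGIN1, 2.56 for AKR1C2, 7.21 for AKR1B10, 1.44 for UGDH and 1.45 for SQSTM1. Among inflammation genes, it was 1.23 for NFKBIA, 0.88 for NFKB1 and 1.66 for GBP2. Among growth and ribosome genes, it was 2.11 for MYC, 1.04 for POLR1B and 0.77 for MRPS30. Among amino acid response and charging genes, it was 1.55 for NUPR1, 1.05 for DDIT3, 0.75 for HARS1 and 0.76 for FARSA. Among ER and hypoxia genes, it was -1.09 for BNIP3L, -1.29 for SEL1L, -0.56 for HSP90B1, -0.65 for EDEM3 and -0.81 for ERO1A. Among sterol genes, it was 0.66 for DHCR7 and 0.78 for ACAT2. Among liver protein genes, it was 2.54 for ALB, 1.85 for AFP and 1.19 for FGB. Over 29 genes at least 1000-fold lower in 3B, the 3B libraries held 0.0427 to 0.0572% of the Huh-7 level in controls. After siARD1 they held 0.0165 to 0.0235%. ALB and AFP meet the rule for those genes by their own levels, so the share is no separate measure for them. The part of that share in both values was not tested. Among the other genes with a difference above 0, it was 1.52 for NNMT, 1.41 for BEND3 and 1.49 for ALG14. Among the other genes with a difference below 0, it was -2.72 for PCDH1, -1.98 for CDS1, -2.65 for IER3IP1, -1.85 for JAZF1, -1.78 for LCA5, -1.52 for C9orf72, -1.65 for GNAZ, -1.67 for CENPE, -2.38 for ICAM5, -2.19 for LIF, -2.12 for TXNIP, -2.11 for RAB37 and -1.90 for GCNT1. AKR1B10 had almost no counts in the Huh-7 controls, so the size of its value depends on the prior count of the fit and is no bound.

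Genes listed in only 1 of the count tables were outside the comparison. Taking an unlisted gene as 0 counts, 380 genes listed only for 3B could be tested, of which 64 were called in that line (38 up and 26 down). Of 393 listed only for Huh-7, 102 were called there (20 up and 82 down).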

How the results depend on the processing

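Requiring a 1.5-fold change left 1105 differences above 0 and 1642 below, 47 shared rises, 90 shared falls, 28 genes rising in Huh-7 and falling in 3B and 77 of the reverse. At a false discovery rate of 0.01, differences below 0 numbered 1824 and the 4 classes 277, 274, 272 and 253. Upper-quartile factors gave 375 shared rises and 856 shared falls. No gene went from a shared to an opposite class or back in any of the alternatives run. Leaving out 1 library gave 2264 to 2902 differences above 0, 2372 to 2677 below, and 442 to 586, 440 to 571, 407 to 659 and 394 to 520 genes in the classes.

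The median 3B response of genes 4-fold higher in 3B was -0.114 with upper-quartile factors and -0.0414 with the GC trend removed (-0.0923 to -0.0505 leaving out a library). That of genes 4-fold higher in Huh-7 was 0.136 at 1 CPM and 0.0933 at 5 CPM (0.226 to 0.373, the highest without the first 3B control). In Huh-7, the 3B-high genes had -0.0813 with upper-quartile factors, -0.0618 with the level from control 1 and -0.00715 at 5 CPM (-0.0728 to 0.00462, so this median has no settled sign). The Huh-7-high genes had -0.211 with RLE and -0.267 with upper-quartile factors, -0.14 at 1 CPM, -0.206 with the level from control 1 and -0.0864 at 5 CPM (-0.232 to -0.204). The share moving toward the other line was 68.8% in a fit of only the genes at 5 CPM or more, where the report's 66.7% takes those genes from the full fit (74.1 to 81.9%, the highest without the first 3B control). The cause of these shifts was not tested.

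Of 225 called values of named genes, 158 kept their call in every alternative and 1 reversed: the 3B value of ACSL4, -0.01 with the GC trend removed. The replicate block gave 2749 and 2857 differences and 666, 612, 605 and 585 genes in the classes. Same-numbered libraries deviated together by correlations of -0.0388 to 0.0429, so the numbers were not taken as pairs. The log2 pseudocount alternative was not run, since the tables hold counts. Depth limits genes under 1 CPM, and 3 libraries a group limit small changes.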
